A study of Mus musculus with 34 samples.

Results

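Distal KDM5A peaks with clear signal are chromatin regions bound by the histone demethylase KDM5A far from any gene start in mouse 3T3-L1 cells, a preadipocyte line that turns into adipocytes when induced. A peak was counted when its deposited distance to the nearest transcription start site was above 10000 bp and its mean over the 6 KDM5A libraries was at least 20 tags, a tag being a mapped read end scaled by the authors to a common library size. This held for 6660 of the 87525 deposited KDM5A peaks (7.61%) and for 12.9% of the 51562 peaks beyond 10000 bp. The peaks were chosen by their KDM5A tags, so their level is given as a description only, and RNA and KDM5C entered no part of the choice. Change with time is not independent of it: a peak that is high at 1 time can reach the mean through that time alone, and 1862 of the 6660 fall below 20 tags when the libraries of 1 of the times are left out of the mean. Counts and medians of change are therefore descriptions of these peaks, and nothing is read from their excess over other peaks.

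KDM5A was immunoprecipitated from 3T3-L1 cells at day 0 (confluent for 2 days, before induction), 4 hours after induction and day 2 of differentiation, with 2 libraries at each time, and KDM5C at day 2 with 2 libraries. The inducing mix held serum, insulin, dexamethasone and IBMX, and cells were crosslinked by DSG and then formaldehyde. For the cells behind the KDM5A and KDM5C libraries the labels name no virus. RNA came from other cells of the line, transduced 4 days before induction with lentiviral shRNA against luciferase (shLuc, the control) or against Kdm5a, Kdm5b and Kdm5c together (shKdm5ABC), at the same 3 times with 2 libraries each. Both RNA groups therefore carry a lentiviral hairpin, and all groups come from 1 cell line. The labels number the 2 libraries of a group as experiments but do not say that they are separate cultures. P-values therefore measure only spread between these samples, and for KDM5A it is a spread fitted to all peaks by level.

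KDM5A and its relatives KDM5B and KDM5C remove methyl groups from lysine 4 of histone H3, a mark that in its trimethylated form sits at active gene starts. KDM5A is best known at such promoters, where CpG-rich DNA and the mark itself help to recruit it. Sites far from gene starts are the usual place of enhancers, where the monomethylated form of the same lysine is typical. During adipogenesis a first wave of glucocorticoid and cAMP response factors is followed by PPARG and C/EBPA, which switch on lipid genes.

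The KDM5A libraries held between 3.87M (4 hours replicate 2) and 17.6M reads (day 0 replicate 2), with 4.41M in day 2 replicate 1 and 11.11M in Input. One read was worth 2.58 tags in 4 hours replicate 2 and 2.27 tags in day 2 replicate 1, so a peak listed at 0 there could lie a few tags higher by counting alone. Between 19.4% and 42.5% of the reads of a library lay in KDM5A peaks. The knockdown lowered RNA of its targets at each time, and at day 2 the log2 change was -0.90 for Kdm5a, -0.65 for Kdm5b and -1.35 for Kdm5c (limma adjusted p 0.00424, 0.00664 and 0.0029). Preadipocyte markers summed to 15.0 to 15.7 log2 tags per kb at day 0 and 4 hours in shLuc cells and to 12.4 to 13.0 at day 2, and adipocyte markers went from 11.65 to 12.03 up to 15.12 to 15.47. Of the markers of other cell types, macrophage genes summed to 4.83 to 6.80 over the 12 RNA libraries with 3 of 6 measured genes below 1 throughout. Neuronal genes summed to 3.08 to 6.36, skeletal muscle genes to 2.61 to 5.55 and endothelial genes to 1.16 to 2.39. Epithelial genes summed to below 0 in every library.

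The distal peaks lay a median of 30.9 kb from the nearest start site, at most 938944 bp away, and 2803 of them (42.1%) were upstream of it. Of the 6660, 2033 lay 10 to 20 kb from a start site, 2615 lay 20 to 50 kb away and 14 lay beyond 500 kb. Their width was 840 bp at the median (500 to 9681 bp). Their mean level was 32.2 tags at the median, against 198 tags in the 9506 promoter peaks (within 1000 bp of a start site) that pass the same level. A total of 1743 (26.2%) were below 25 tags and 458 reached 100 tags. None overlapped any of the 10702 deposited H3K4me3 promoter peaks, which all lie within 3000 bp of a start site, so their position alone keeps the 2 sets apart.

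Next to the thresholds, the mean levels just inside were 20 tags for a peak of Iqsec1, 20.0017 for one of Foxp1 and 20.0067 for one of Tbc1d2, and those just outside were 19.9967 for one of Lsm6, 19.995 for one of Atp6ap2 and 19.99 for one of Atxn1. The nearest distances inside were 10002 bp (Tor1b) and 10012 bp (Coq2), and those outside were 9999 bp (1700088E04Rik) and 9997 bp (Bahcc1).

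At the 8 distal peaks with the most KDM5A, no change with time was called (limma, adjusted p at least 0.731). The SE that the fit gives peaks of this level was 0.83 (Prrc2b) to 0.96 (Nlrp4f), against 0.61 at the Ism1 peak of 33.9 tags. Only very large changes could be called here, so the lack of calls does not show that these peaks were stable. The peak with the highest mean (703 tags), 35810 bp upstream of Nlrp4f at chr13:65341510-65344159 (mm9 throughout), held 799 and 319 tags at day 0, 827 and 478 at 4 hours and 1178 and 617 at day 2. The widest, a stretch of 9681 bp at chr9:44290273-44299954 upstream of Bcl9l, a cofactor of beta-catenin in Wnt signalling, held 654 and 315 tags at day 0, 631 and 563 at 4 hours and 815 and 712 at day 2. The values of the 3 times overlap at the Nlrp4f peak, and at each time replicate 1 was the higher one in both. The others were near Zfp239 (576 tags), 4930467E23Rik (560), Fat1 (538), which encodes a giant cadherin, Hsd17b12 (534), which works in fatty acid elongation, Gm13011 (456) and Prrc2b (433).

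Input, the unprecipitated chromatin, was low in these peaks. Its median was 4.5 tags, against 33.2 and 22.2 in the day 0 libraries, 46.9 and 36.2 in the 4 hour libraries and 31.8 and 27.8 in the day 2 libraries. The median ratio to Input (1 tag added to each) was 7.38 and 4.68 at day 0, 9.68 and 7.53 at 4 hours and 6.84 and 5.91 at day 2, a mean of 7.005 (SD 1.69 over 6 libraries). All 6660 exceeded 2 times Input by their mean, 6544 (98.3%) exceeded 4 times and 868 exceeded 10 times. The median ratio of the mean level was 6.94, against 13.2 at the promoter peaks of the same threshold.

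Input was above 20 tags in 46 peaks. The highest Input values were 45.9 tags near 1700019O17Rik, 43.2 at the Bcl9l stretch, 42.3 near Zfp541 and 40.5 near Ninj2. On chromosome 10 the peaks beside Cpm and Mdm1 held Input of 34.2 and 22.5 tags, and 2 other peaks beside Cpm held 12.6 and 9.0, while the peaks beside Llph and Mir763 further along held 3.6 each. Their ratio to Input was 5.64 for Cpm and 7.38 for Mdm1, near the median of all the distal peaks.

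**Figure D1:**
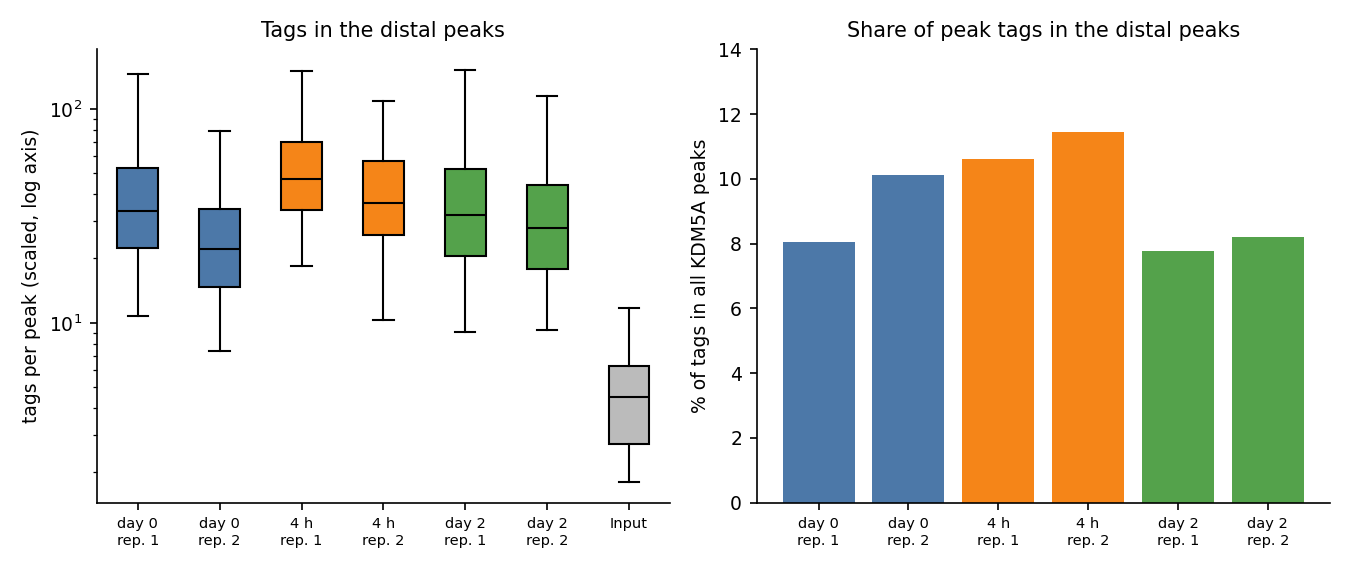
Left, tags per peak in the 6660 distal peaks by library on a log axis (line, median; box, quartiles; whiskers, 5th and 95th percentile). Right, the share of all tags in KDM5A peaks that fell in these peaks. The medians run from 22.2 to 46.9 tags against 4.5 in Input, and both 4 hour libraries have the highest shares (10.6% and 11.5%).

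On the deposited scale, most of the distal peaks had their highest KDM5A value at 4 hours. The highest of the 6 values fell in 4 hours replicate 1 at 3012 peaks, in 4 hours replicate 2 at 1265, in day 2 replicate 1 at 1126, in day 0 replicate 1 at 899, in day 2 replicate 2 at 297 and in day 0 replicate 2 at 61. The distal peaks took 8.06% and 10.1% of all peak tags at day 0, 10.6% and 11.5% at 4 hours and 7.76% and 8.21% at day 2. The 4 hour values lie above all others, and the day 2 and day 0 values overlap. Exact two-sided permutation tests of 2 against 2 libraries gave p = 0.333 for 4 hours against day 0, 0.333 for day 2 against 4 hours and 0.667 for day 2 against day 0, where 0.333 is the smallest p this design allows.

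The median log2 change of the distal peaks was 0.49 from day 0 to 4 hours, beside 0.18 over all 87525 peaks and 0.03 over the promoter peaks of at least 20 tags. It was 0.11 from day 0 to day 2, beside 0.37 and 0.39, and -0.42 from 4 hours to day 2, beside 0.19 and 0.36. Another 4056 peaks of at least 20 tags lay between the promoter and distal limits. On the deposited scale their medians were 0.42, 0.25 and -0.21 in the same order of comparisons. The rise at 4 hours and the fall from 4 hours to day 2 were therefore not particular to distal peaks. These comparisons share libraries and are not independent of each other. Scaling the libraries by median-ratio size factors moved the median of all peaks to -0.14, 0.03 and 0.18 and that of the distal peaks to 0.13, -0.27 and -0.43. With either scaling the distal median was above that of all peaks from day 0 to 4 hours and below it in both comparisons with day 2. The sign of the distal day 2 minus day 0 median turned. The peaks were chosen by these same tags, and the part of that choice in the differences was not tested.

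Replicates differed widely. The 2 day 0 values differed by over 2 times in 2120 peaks (31.8%), the 4 hour values in 1666 (25.02%) and the day 2 values in 1021 (15.3%). In 48 peaks the second libraries of day 0 and 4 hours both exceeded 2 times the first libraries of those times and day 2 replicate 2; their median values were 7.8 and 41.5 tags at day 0, 10.1 and 65.9 at 4 hours and 11.4 and 12.4 at day 2.

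A set of 144 peaks (2.16%), 18 of them among the 48, had over 50% of their KDM5A tags in a single library, where an even share is 16.7% and the median highest share was 26.6%. In 114 of them that library was day 2 replicate 1, with medians of 3.9 and 3.41 tags at day 0, 4.19 and 10.3 at 4 hours and 148 and 4.64 at day 2. Their Input was 2.7 tags at the median, and 4 of the 114 have a mean of at least 20 tags over the other 5 libraries. In 19 it was 4 hours replicate 2, in 7 day 2 replicate 2 and in 4 it was 4 hours replicate 1. Whether these peaks belong to the time or to the single library cannot be told apart with 2 libraries.

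Between day 0 and 4 hours, 25 distal peaks gained KDM5A and 0 lost it (limma, adjusted p under 0.05 over all 87525 peaks). This is 0.375% of them, where 0.0606% of all peaks were called higher and 0% lower, and 1 promoter peak was called. Of the 25, 15 have a mean below 20 tags without the 4 hour libraries and so were counted through the time at which they are high, and 10 reach it without them. At an unadjusted p under 0.05, on the deposited scale, the counts were 995 higher and 17 lower. No count over all peaks was made to set beside them, so nothing is read from their balance. Median-ratio size factors moved the median change of all peaks from 0.18 to -0.14. The 25 had medians of 8.78 and 6.25 tags at day 0, 66.2 and 51.7 at 4 hours and 31.8 and 27.8 at day 2. In each of the 25 both 4 hour values lay above both day 0 values, which a call on these same libraries favours. A KDM5C peak, from day 2 only, overlapped 7 of the 25 (28%), beside 12.7% of the 6660.

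The largest gain was 114400 bp downstream of the start of Ism1, which encodes the secreted protein isthmin-1, at chr2:139617775-139618853. It held 9.75 and 5.11 tags at day 0, 82.9 and 64.6 at 4 hours and 24.97 and 16.2 at day 2 (log2 change 3.19, SE 0.61, adjusted p 0.00582). A second Ism1 peak, at chr2:139564285-139565704, held 14.6 and 15.9, 58.6 and 56.8, then 34.1 and 37.1 tags, and overlapped a KDM5C peak. At both peaks the 4 hour libraries were highest and the groups did not overlap.

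Near Epas1, which encodes the oxygen-regulated factor HIF-2 alpha, the peak at chr17:87188802-87190247 held 8.78 and 3.41 tags at day 0, 55.3 and 46.5 at 4 hours and 9.08 and 13.9 at day 2 (log2 change 2.98, adjusted p 0.0369). The day 2 values were back beside those of day 0. Upstream of Vegfa, the vascular growth factor, the peak at chr17:46189905-46191068 held 16.6 and 6.82, 82.9 and 67.2, then 45.4 and 34.0 tags (log2 change 2.69, adjusted p 0.0265). Here day 2 lay between the other times.

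A pair of the 25 peaks lay upstream of Scd1, which encodes stearoyl-CoA desaturase, the enzyme that makes monounsaturated fatty acids. The peak at chr19:44496563-44497739 held 11.7 and 5.68 tags at day 0, 60.3 and 43.9 at 4 hours and 65.8 and 44.1 at day 2, and it overlapped a KDM5C peak. The peak at chr19:44512316-44512816 held 8.78 and 3.41, 42.7 and 41.3, then 38.6 and 29.4 tags. The gain at 4 hours was 2.51 and 2.71 on the log2 scale (adjusted p 0.0423 and 0.0375), and unlike at Epas1 both peaks stayed high at day 2, where the first was also called against day 0 (2.57, adjusted p 0.0164). The remaining 3 distal peaks of Scd1 were not called.

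Other genes with a peak that gained KDM5A at 4 hours were Dpysl5 (log2 change 3.06), Cdc42bpb (3.04), a kinase of the actin cytoskeleton, 9130230L23Rik (3.03), Sftpb (3.00), Nod1 (2.93), a sensor of bacterial cell wall, Mtor (2.79), the growth-control kinase, Foxp1 (2.68), a forkhead transcription factor, Cacna1c (2.67), a calcium channel subunit, Kdm7a (2.53), another histone demethylase, and Slc6a6 (2.52), the taurine transporter. At the Mtor peak, chr4:147839966-147842077, the values were 7.8 and 6.25 tags at day 0, 60.3 and 49.1 at 4 hours and 79.4 and 39.4 at day 2. Leaving out 4 hours replicate 1, 4 hours replicate 2 or day 0 replicate 2 left none of the 25 called, and without day 0 replicate 1 the count was 116. Since limma found infinite prior degrees of freedom, the p of a peak comes from a spread fitted to all peaks by level, and with 1 common prior in its place no peak was called.

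RNA of the nearest genes was measured in shLuc cells. Of the 20 tested genes nearest to the 25 peaks, 11 rose and 0 fell at 4 hours, with a median change of 0.64, where 20.7% of the 13534 transcripts tested rose and 21.6% fell. The 11 were Scd1 (log2 change 3.49, SE 0.35), Epas1 (3.48, SE 0.22), Foxp1 (2.66, SE 0.16), Ism1 (2.47, SE 0.35), Vegfa (2.36), Nod1 (2.30), Slc6a6 (1.97), Cacna1c (1.42), Mtor (1.18), Kdm7a (0.53) and Mkrn2 (0.47). Epas1 RNA was 4.46 and 4.91 log2 tags per kb at day 0, 8.03 and 8.30 at 4 hours and 6.08 and 6.00 at day 2, and the 3 times did not overlap. In bulk RNA, fewer cells that express a gene and less RNA per cell cannot be told apart.

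Between day 0 and day 2, 59 distal peaks gained KDM5A and 12 lost it, or 0.886% and 0.180% of them, where 0.136% of all peaks were called higher and 0.0366% lower. Promoter peaks gave 3 and 1. Of the 59 gains, 48 have a mean below 20 tags without the day 2 libraries and 11 reach it, and of the 12 losses 10 reach it without the day 0 libraries. At an unadjusted p under 0.05 the counts were 588 and 296, again with no count over all peaks, so nothing is read from them. With median-ratio size factors the split was 142 higher and 233 lower, so the balance of gains and losses turned with the scaling.

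The 59 gains were split by the share of their tags in 1 library, after their values were seen. In 33 of them over 50% of the tags lay in 1 library, which was day 2 replicate 1 in 32, with medians of 3.9 and 3.98 tags at day 0, 6.7 and 15.5 at 4 hours and 275 and 9.28 at day 2. In 12 of the 33 both day 2 values were still over 2 times both day 0 values. This held for all of the other 26, which had medians of 9.27 and 5.68 at day 0, 25.1 and 25.8 at 4 hours and 61.3 and 44.1 at day 2. Without day 2 replicate 1 none of the 59 gains and none of the 12 losses was called. The counts were 113 and 22 without day 2 replicate 2, 93 and 12 without day 0 replicate 1, and 21 and 5 without day 0 replicate 2. KDM5C peaks, from day 2 only, overlapped 31 of the 59 (52.5%), beside 12.7% of the 6660.

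**Figure D2:**
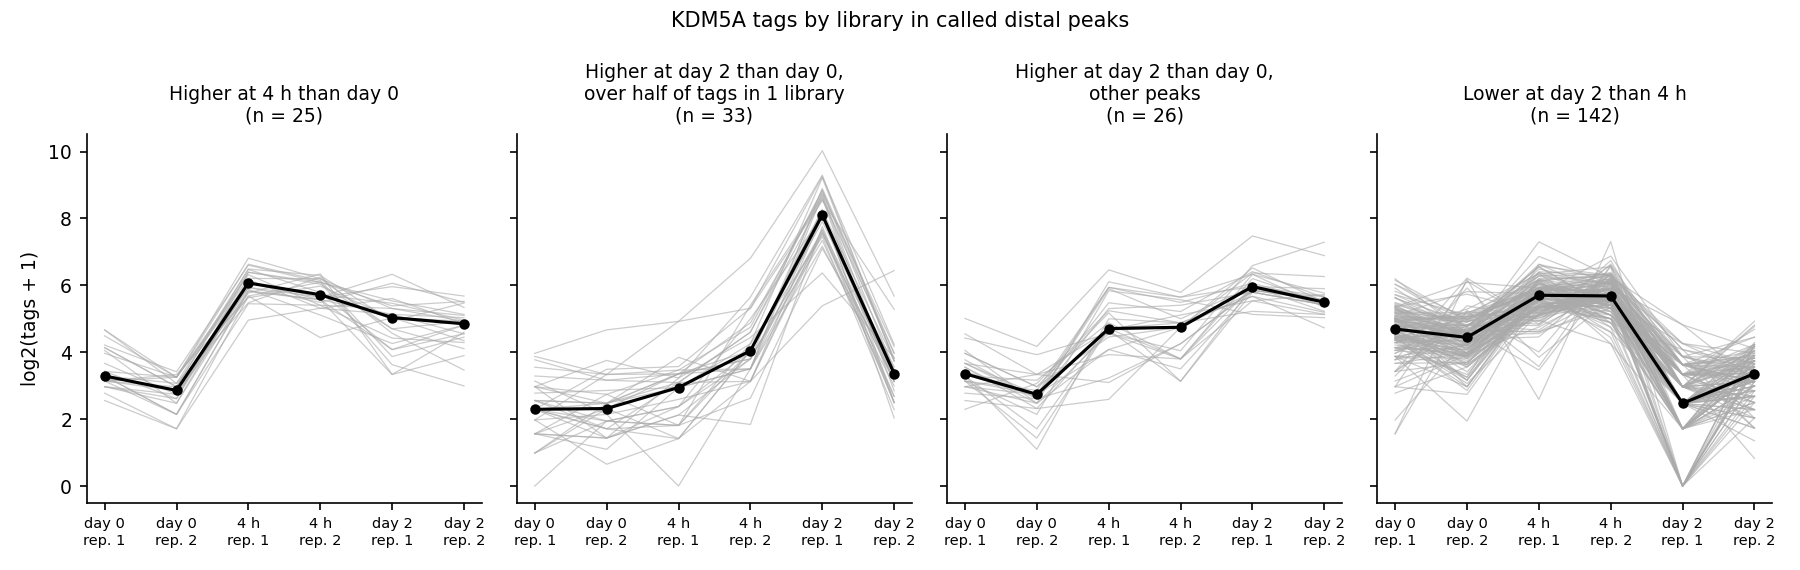
KDM5A tags, as log2 of tags + 1, in each of the 6 libraries for 4 sets of called distal peaks; grey lines are single peaks and the black line joins the medians. Of the 33 peaks of the second panel, 32 have most tags in day 2 replicate 1 (median of the panel 275 tags against 9.28 in replicate 2), while the 26 of the third panel are high in both day 2 libraries.

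The largest gains with most tags in 1 library were near Adam10, which encodes a sheddase of cell surface proteins, Ago1, of the RNA silencing complex, Wbscr17 and Cacna1d. The Adam10 peak, chr9:70653748-70654260, held 0.98 and 3.98 tags at day 0, 9.21 and 28.4 at 4 hours and 422 and 7.73 at day 2 (log2 change 4.27, SE 0.69, adjusted p 9.93e-06). The Wbscr17 peak, chr5:131995354-131995874, held 3.9 and 10.2, 10.9 and 38.8, then 611 and 17.8 tags. At both peaks day 2 replicate 1 stands far above the other 5 libraries, and the second day 2 value is below that of 4 hours replicate 2. A wide spread between the 2 day 2 values of 1 peak does not raise its p, which comes from the spread fitted to all peaks. Adam10 RNA was 9.15 and 9.29 at day 0 and 9.15 and 9.10 at day 2 (log2 change -0.10, adjusted p 0.46).

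Among the gains seen in both day 2 libraries, the peak upstream of Dolpp1, an enzyme of dolichol metabolism, at chr2:30236375-30237497 held 4.88 and 3.98 tags at day 0, 5.02 and 25.8 at 4 hours and 63.6 and 41.0 at day 2 (log2 change 3.27, adjusted p 0.00445). The peak at chr4:150828162-150829681 near Vamp3, a protein of vesicle fusion, held 8.78 and 2.27, 25.1 and 12.9, then 61.3 and 46.4 tags (3.26, adjusted p 0.00181). Similar gains were near Pdlim1 (3.00), a LIM protein of the actin cytoskeleton, Etfa (2.98), a subunit of the flavoprotein that takes electrons from fatty acid oxidation, Cnnm2 (2.94), which handles magnesium, and Pkd2l1 (2.91), a cation channel. In each of these 6 peaks both day 2 libraries were above both day 0 libraries by over 2 times.

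Acsl1, which encodes the main acyl-CoA synthetase that activates long-chain fatty acids in adipocytes, had 4 distal peaks between 11074 and 30638 bp from its start. The peak at chr8:47569116-47570661, the 1 of the 33 with most tags in day 2 replicate 2, held 4.88 and 4.55 tags at day 0, 13.4 and 7.75 at 4 hours and 40.9 and 85.8 at day 2 (log2 change against day 0 3.40, adjusted p 0.00181) and overlapped a KDM5C peak. The peak at chr8:47585754-47588314 held 4.88 and 6.25, 4.19 and 0, then 40.9 and 64.9 tags, and was called against 4 hours (4.53, adjusted p 0.000382). The peak at chr8:47566556-47568385 held 10.7 and 3.98, 9.21 and 2.58, then 27.2 and 75.8 tags, and the fourth, at chr8:47573121-47574195, held 13.7 and 9.66, 23.5 and 12.9, then 13.6 and 60.3 tags. At 3 of the 4 both day 2 values were the highest, with replicate 2 above replicate 1 in all 4.

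The same stretch of chromosome 8 goes on to peaks assigned to Cenpu, a centromere protein. The peak at chr8:47607703-47613322 held 32.2 and 18.2 tags at day 0, 26.8 and 7.75 at 4 hours and 74.9 and 145 at day 2 (log2 change against 4 hours 2.75, adjusted p 0.00322). The one at chr8:47623721-47628221 held 39.99 and 22.7, 31.8 and 25.8, then 70.4 and 147 tags. Both overlapped a KDM5C peak. Acsl1 RNA was 6.24 and 6.39 at day 0, 7.18 and 7.13 at 4 hours and 12.68 and 13.46 at day 2 (log2 change 6.76, SE 0.71, adjusted p 2.52e-05), the largest rise at day 2 among the called genes nearest to a distal peak under the naming rule. Cenpu RNA rose by 1.01 (adjusted p 0.000465).

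RNA of the genes nearest to the 59 peaks was mixed. Of 44 tested, 24 rose and 7 fell at day 2, where 27.1% of all transcripts rose and 27.8% fell. Of the 23 tested genes of the peaks with most tags in 1 library, 9 rose and 7 fell (median 0.31), and of the 21 of the other peaks 15 rose and 0 fell (median 1.08), a split made after the values were seen. The rises included Scd1 (4.40), Pkd2l1 (2.90), Dolpp1 (2.23), Sh2d7 (2.22), Uck1 (1.98), a uridine kinase, Cnnm2 (1.93), Hs3st3b1 (1.89), a heparan sulfate enzyme, Elmsan1 (1.68), Pdlim1 (1.55) and Etfa (0.87).

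The 12 peaks that lost KDM5A from day 0 to day 2 had medians of 34.1 and 24.4 tags at day 0, 44.4 and 32.3 at 4 hours and 1.14 and 6.19 at day 2. None overlapped a KDM5C peak, where 12.7% of the 6660 did. In all 12 the groups did not overlap, which a call on the same libraries favours. The peak 26576 bp from the start of Ier2, an immediate-early gene, at chr8:87159925-87160425 held 48.8 and 19.9 tags at day 0, 30.2 and 18.1 at 4 hours and 0 and 5.41 at day 2 (log2 change -3.67, SE 0.73, adjusted p 0.00181). A neighbouring Ier2 peak at chr8:87162052-87164204 held 173 and 91.5, 165 and 121, then 229 and 157 tags and was not called. The lowest value of the first peak, 0, is from day 2 replicate 1, where 1 read is worth 2.27 tags.

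Losses at day 2 also lay near Ltbp1 and Smad6 of the TGF-beta pathway. Ltbp1 encodes a matrix protein that binds latent TGF-beta, and its peak at chr17:75512185-75512840 held 32.2 and 29.0 tags at day 0, 45.2 and 64.6 at 4 hours and 4.54 and 2.32 at day 2 (log2 change -2.88, adjusted p 0.0103). Smad6 encodes an inhibitor of BMP signalling, and its peak at chr9:63744096-63744847 held 72.2 and 22.2, 57.8 and 33.6, then 4.54 and 9.28 tags (-2.45, adjusted p 0.0401). In both, both day 2 values were the lowest. Ltbp1 RNA fell by 2.41 and Smad6 RNA fell by 1.67 at day 2, while Ier2 RNA rose by 1.19, and of the 10 tested genes nearest to the 12 peaks 2 rose and 4 fell (27.1% and 27.8% of all transcripts).

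The largest set was the loss of KDM5A from 4 hours to day 2. Of the 6660 peaks, 142 were lower at day 2 than at 4 hours and 33 higher, or 2.13% and 0.495%, where 0.483% and 0.123% of all peaks were called. Without the time at which they are high, 35 of the 142 and 2 of the 33 reach a mean of 20 tags. Promoter peaks gave 9 and 7. The counts at an unadjusted p under 0.05 were 1221 and 256, with no count over all peaks beside them, so nothing is read from these. The 142 had medians of 24.9 and 20.7 tags at day 0, 51.1 and 50.4 at 4 hours and 4.54 and 9.28 at day 2. In 140 of them the libraries of the 2 times did not overlap, which a call on these same libraries favours. A KDM5C peak overlapped 5 of the 142 (3.52%) and 15 of the 33 (45.5%), beside 12.7% of the 6660. KDM5C was profiled at day 2 only, the time at which the 142 are low and the 33 high, and its part in this was not tested.

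The strongest losses were near Arl8b, a small GTPase of lysosomes, Ppp1r32, Fosl2 and Gramd3. The Arl8b peak, chr6:108702017-108702993, held 22.4 and 13.1 tags at day 0, 42.7 and 46.5 at 4 hours and 0 and 3.09 at day 2 (log2 change -4.49, adjusted p 7.85e-05). Fosl2 encodes an AP-1 factor, and its peak at chr5:32338134-32338634 held 9.75 and 11.9, 40.2 and 51.7, then 0 and 7.73 tags (-3.98, adjusted p 0.000657). Fosl2 RNA was also highest at 4 hours, with 7.72 and 7.85 at day 0, 10.78 and 10.29 at 4 hours and 7.94 and 7.81 at day 2. Peaks near Nckap5 (-3.72), Ltbp1 (-3.68), Epha2 (-3.48), an ephrin receptor and Spdl1 (-3.42), of the mitotic spindle checkpoint, were among the 142.

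In 17 of the 33 gains from 4 hours to day 2 both day 2 values were over 2 times both 4 hour values. Among them were peaks near Sfxn5 (log2 change 3.87), a mitochondrial carrier, Akt2 (3.12), a kinase of the insulin pathway, Slc12a7 (3.07), a potassium chloride cotransporter, Rfc1 (2.86), of the replication clamp loader, and Eif2d (2.82). Gains were also called near Zdhhc22 (3.29), Bcor (3.41) and Rxra (2.32), the partner receptor of PPARG. At Bcor and Rxra 1 day 2 value was less than 2 times the higher 4 hour value. At the Akt2 peak, chr7:28409043-28410536, the values were 10.7 and 5.11 tags at day 0, 1.67 and 10.3 at 4 hours and 52.2 and 41.8 at day 2. At the Sfxn5 peak, chr6:85243548-85244048, they were 20.5 and 9.66, 8.37 and 0, then 47.7 and 40.2 tags. Akt2 RNA rose by 0.86 at day 2 against day 0 and Sfxn5 RNA fell by 0.78.

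Of the 106 tested genes nearest to the 142 peaks, 34 rose and 36 fell at day 2 against day 0, and of the 22 nearest to the 33 gains 14 rose and 3 fell, where 27.1% of all transcripts rose and 27.8% fell. Without day 2 replicate 1 the counts were 5 losses and 2 gains, without 4 hours replicate 2 they were 17 and 13, without 4 hours replicate 1 122 and 64, and without day 2 replicate 2 90 and 104. With median-ratio size factors they were 755 and 126.

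**Figure D3:**
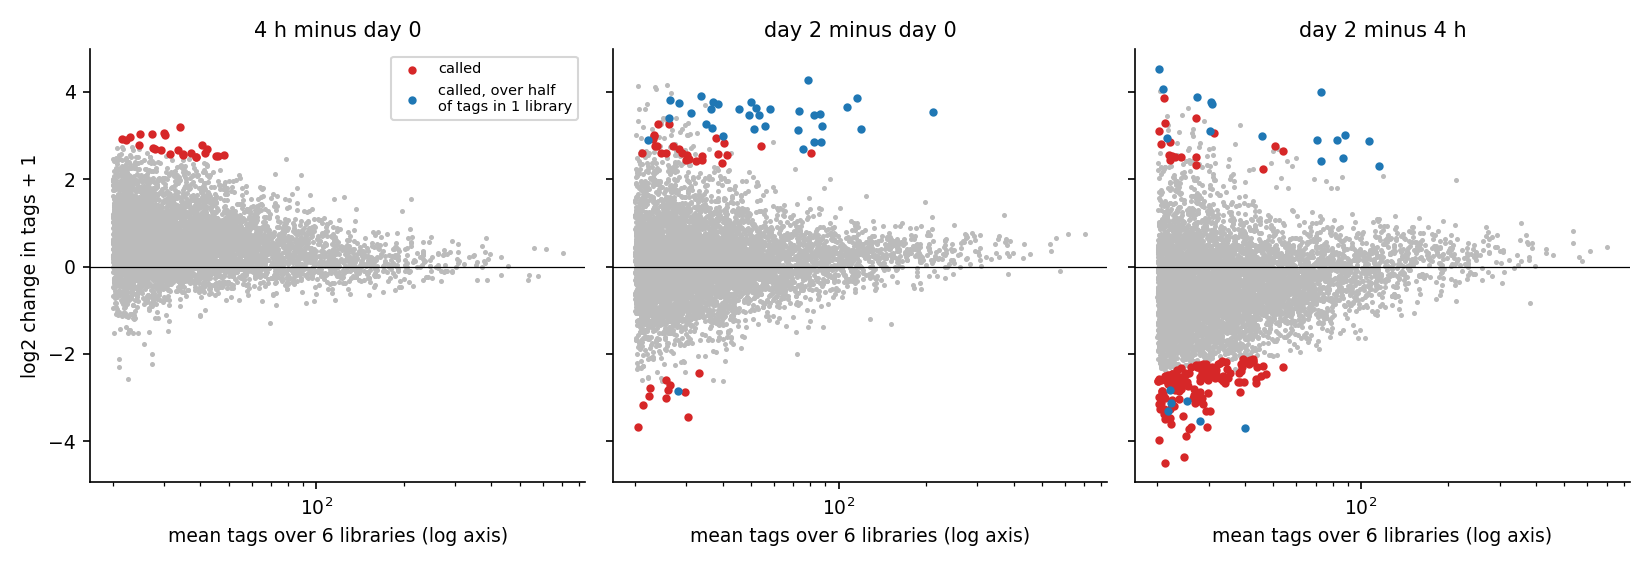
Log2 change in tags + 1 against the mean tags over 6 libraries (log axis) for the 6660 distal peaks in the 3 comparisons of times; red, called; blue, called with over 50% of the tags in 1 library. The 142 losses from 4 hours to day 2 lie at low mean levels (median 27.0 tags), and the blue points lie mostly among the day 2 gains.

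Many genes had several distal peaks. The 6660 peaks were assigned to 4060 nearest genes, of which 2644 had 1 peak, 819 had 2 and 597 had 3 or more, these last holding 2378 peaks. Tns1, which encodes a focal adhesion protein, had 14 peaks over 102 kb, with summed tags of 576 and 341 at day 0, 806 and 545 at 4 hours and 667 and 717 at day 2, and none was called. Foxp1 had 13 over 467 kb, with 672 and 353, 1194 and 780, then 890 and 611 tags, and its RNA rose by 2.66 at 4 hours. Rxra had 11 over 84.2 kb, with 624 and 301, 790 and 514, then 683 and 871 tags, and its RNA rose by 1.67 at day 2.

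Smad6 and Smad3 lie side by side on chromosome 9 with 9 and 10 peaks. Summed tags at Smad6 were 332 and 153 at day 0, 443 and 235 at 4 hours and 188 and 180 at day 2, and at Smad3, which transmits TGF-beta signals, they were 312 and 164, 473 and 333, then 254 and 233. At Smad3 the 4 hour values were highest and at both loci the day 2 values lay within the day 0 range. Septin9 and the matrix gene Fbln2 had 12 peaks each, Vgll4, a cofactor of TEAD factors, and Iqsec1 had 11 each, and Sik1, Col4a1 and Col5a1 had 9 each.

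KDM5C, the relative of KDM5A profiled at day 2, shared a minority of these regions. A KDM5C peak overlapped 844 of the 6660 (12.7%, 95% exact binomial interval 11.9 to 13.5), by at least 1 base. This compares with 7.13% of all KDM5A peaks, 4.16% of the distal peaks below 20 tags and 21.0% of the promoter peaks of at least 20 tags, intervals here and below covering counting error only. By KDM5A level the share was 10.5% at 20 to 25 tags and 26.0% at 200 tags or more (17.7 to 35.7). In the same bins promoter peaks gave 6.75% and 21.99%, with their highest share, 22.6%, at 100 to 200 tags, and the intervals of distal and promoter peaks overlapped in all 7 level bins, by the least at 60 to 100 tags (15.64%, 13.0 to 18.6, against 21.0%, 18.4 to 23.7). Overlap of intervals does not test a difference, and the shares of distal and promoter peaks at equal level were not tested against each other.

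Seen from KDM5C, 864 of its 14827 peaks (5.83%) overlapped a distal KDM5A peak of at least 20 tags, as did 855 of its 9309 peaks beyond 10000 bp (9.18%). Distal KDM5A peaks below 20 tags, of which 1866 overlapped a KDM5C peak, are left out of these shares. KDM5C tags in the shared peaks had medians of 27.2 and 13.5 in the 2 libraries, against 1.8 in Input, and all 844 exceeded Input in both. Counting only KDM5C peaks with a mean of at least 20 tags, 402 (6.04%) were shared. The 2 KDM5C libraries held 2.95M and 8.13M reads.

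The highest KDM5C levels at distal KDM5A peaks were near Cpm (411 and 151 tags in the 2 KDM5C libraries), a membrane carboxypeptidase, Ppp2r1b (255 and 62.8), a scaffold of phosphatase 2A, Ybx3 (424 and 56.6), a cold shock domain protein, Arid1b, a subunit of the BAF remodeller, and 4933427E13Rik. The Cpm peak lies in the stretch of raised Input given above. At Ybx3 the KDM5A values were 14.6 and 24.4 tags at day 0, 29.3 and 111 at 4 hours and 1040 and 50.3 at day 2, so that the first library of day 2 stands far above the rest for both proteins.

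KDM5A peaks with over 50% of their tags in day 2 replicate 1 overlapped KDM5C more often by count, 35 of 114 (30.7%), and this difference was not tested. In these 35 the first KDM5C library was a median of 6.60 times the second (67.9 and 8.61 tags), against 2.05 times (23.8 and 13.5) in the other 809. The 35 were chosen by KDM5A in day 2 replicate 1, so only the KDM5C values are a measurement here, and the labels do not say whether the first libraries of the 2 proteins share chromatin.

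Peaks with and without KDM5C differed in their median KDM5A change. With KDM5C, the median change from day 0 to day 2 was 0.50, against 0.05 in the 5816 without, and from 4 hours to day 2 it was -0.05 against -0.48. From day 0 to 4 hours the medians were 0.55 and 0.48. KDM5C was profiled at day 2 only, and the part of its selection at that time in this difference was not tested.

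**Figure D4:**
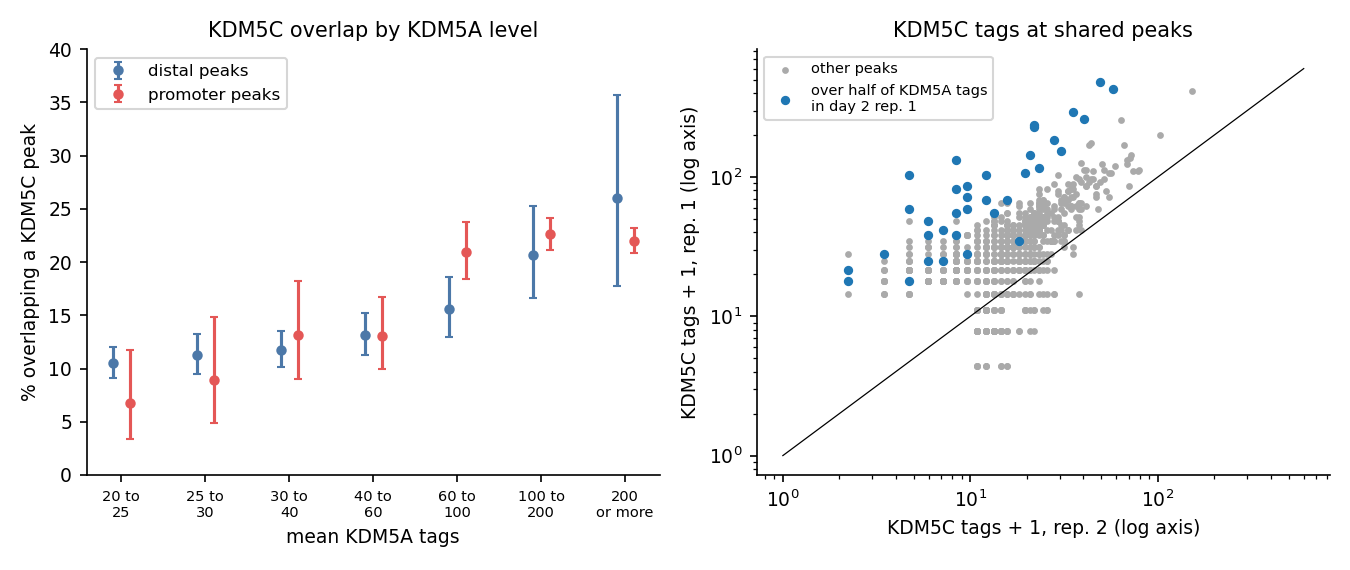
Left, the percentage of KDM5A peaks that overlap a KDM5C peak by mean KDM5A tags, for distal and promoter peaks, with 95% exact binomial intervals. Right, KDM5C tags + 1 in the 2 libraries (log axes) at the 844 shared distal peaks, with the line of equal values; blue points are the 35 with over 50% of KDM5A tags in day 2 replicate 1, where library 1 is a median of 6.60 times library 2.

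The nearest genes were expressed at ordinary levels. Of the 4060, 3574 were in the RNA table (20.4% of its 17515 transcripts), and 2961 passed the filter of a log2 value of at least 1 in at least 2 libraries. Their median level was 6.99 log2 tags per kb, beside 6.73 over all 13534 tested. In shLuc cells 794 of the 2961 rose (26.8%) and 631 fell (21.3%) at 4 hours, where 20.7% and 21.6% of all transcripts did, or 1019 and 843 with the replicate number as a block (background 28.4% and 30.1%). At day 2, 771 rose (26.0%) and 1001 fell (33.8%), where the background was 27.1% and 27.8%, or 913 and 1171 with the block (background 33.1% and 33.6%).

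Under the naming rule, the largest rises at 4 hours were of Fgl2 (log2 change 6.36), Vdr (5.58), the vitamin D receptor, Gfpt2 (5.18), an enzyme of the hexosamine pathway, and Dusp1 (5.02), a MAP kinase phosphatase. The largest falls were of Slc40a1 (-3.93), the iron exporter ferroportin, Adamts5 (-3.80), a matrix protease, Slc8a1 (-3.52), a sodium-calcium exchanger, and Fam13c (-3.38). At day 2 Acsl1, Trim29 (5.68), AU015836 (5.33) and Sema3g (4.75) rose most, and Ifit1 (-5.53) and Irgm2 (-5.40), both interferon-induced, Thbs2 (-5.21), a matrix glycoprotein, and Slc8a1 (-4.72) fell most.

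Change in KDM5A and change in RNA of the nearest gene went weakly together. Across the 5014 distal peaks with a tested nearest gene, Pearson's r was 0.20 and Spearman's rho 0.18 both at 4 hours and at day 2. These points share libraries, and peaks of 1 gene share its RNA value. Of the 1254 peaks with the largest KDM5A gain at 4 hours, 40.7% had a nearest gene that rose and 15.4% one that fell, against 22.03% and 25.6% in the 1253 peaks with the lowest change in KDM5A. At day 2 the shares were 36.4% and 26.2%, against 20.5% and 41.9%.

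**Figure D5:**
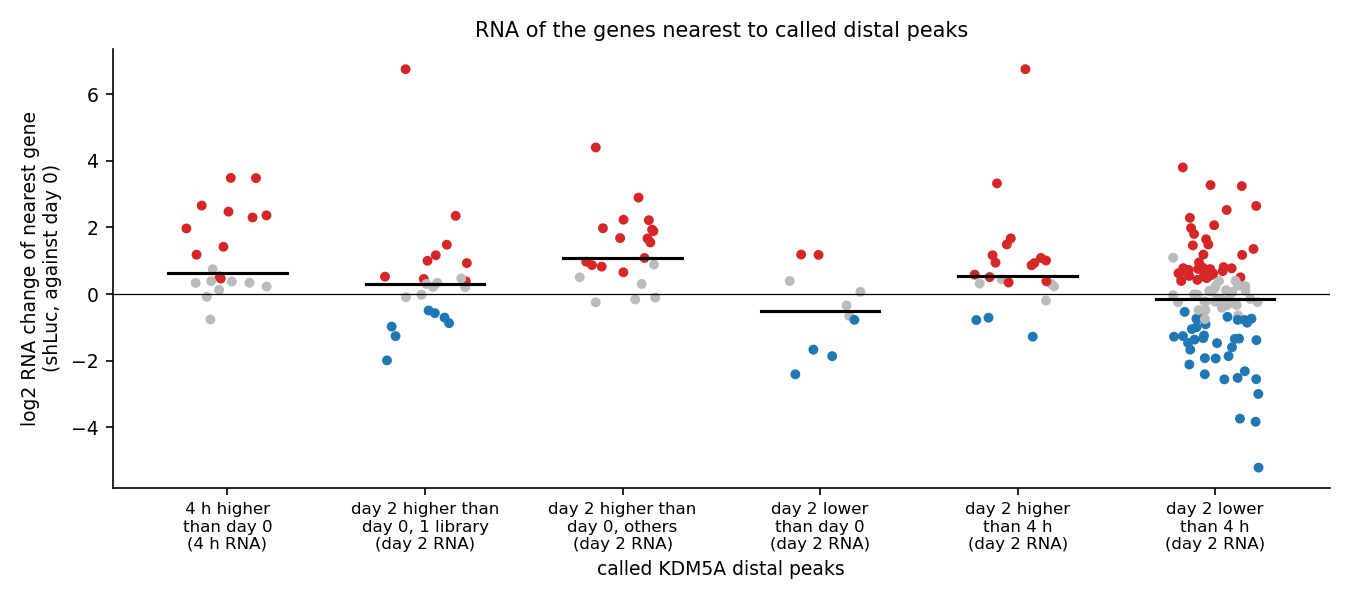
Log2 RNA change in shLuc cells against day 0 of the tested genes nearest to called distal peaks, at 4 hours for the first set and at day 2 for the others; red, rose; blue, fell; grey, not called; bars, medians. All 11 called genes of the first set rose, and the 21 genes of the third set had a median of 1.08 with 15 rises and 0 falls.

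Distal peaks were assigned to 14 of the 28 measured adipogenic transcription factors (38 peaks, 7 with KDM5C), where 20.4% of all transcripts had one. The gene lists here were drawn up with earlier results of these data known, and their counts stand beside 20.7% of all transcripts that rose and 21.6% that fell at 4 hours and 27.1% and 27.8% at day 2. At day 2, RNA of 9 of the 14 rose and 3 fell, with Pparg up by 2.71, Klf15 by 2.57, Srebf1, the lipid synthesis regulator, by 2.06, Foxo1 by 1.98 and Rxra by 1.67, and Klf4 down (-1.81). The Klf15 peak, chr6:90450447-90451990, held 23.4 and 13.6 tags at day 0, 46.9 and 36.2 at 4 hours and 54.5 and 56.4 at day 2 and was not called (adjusted p 0.409 against day 0). Of the 38 peaks 1, near Rxra, was called higher at day 2 than at 4 hours, as were 0.495% of the 6660.

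Of 29 measured lipid storage and adipokine genes 8 had a distal peak (20 peaks, 8 with KDM5C), and the median KDM5A change of these peaks from day 0 to day 2 was 0.99. Calls against day 0 were 2 higher at 4 hours and 2 higher at day 2, all at Scd1 and Acsl1, and calls of day 2 against 4 hours were 2 higher, at Acsl1, and 1 lower, at Lpin1 (-2.32). Of the 6660, 0.375% and 0.886% were called higher against day 0, and 0.495% higher and 2.13% lower at day 2 against 4 hours. RNA rose at day 2 for 6 of the 7 tested, which include Lpin1 (3.27), a phosphatidate phosphatase, Dgat1 (3.12), which makes triglyceride, and Fasn (2.57), fatty acid synthase.

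Immediate-early and cAMP response genes had 39 peaks at 16 of 30 genes. None of these peaks was called at 4 hours against day 0. Only 0.375% of the 6660 were called higher there, so the lack of a call among 39 peaks says little. The median KDM5A change of the 39 was 0.45, beside 0.49 for the 6660. At 4 hours RNA of 11 of the 16 genes rose and 2 fell (20.7% and 21.6% of all transcripts). Among the rises were Dusp1, Nr4a1 (4.44), an orphan nuclear receptor, Fosl2 (2.75), Fos (2.29) and Sik1 (2.16), a cAMP-induced kinase. Of 16 glucocorticoid targets 8 had a peak, and RNA of 6 of the 8 rose and 0 fell at 4 hours, with Errfi1 up by 4.20 and Fkbp5 by 3.31. The Mt1 peak, chr8:96713074-96713761, held 9.75 and 2.84 tags at day 0, 24.3 and 36.2 at 4 hours and 27.2 and 27.1 at day 2, without a call (adjusted p 0.17 at 4 hours).

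Matrix genes held 64 peaks at 21 of 34 genes, 9 of them each at Col4a1 and Col5a1. RNA of 4 of the 21 rose and 13 fell at day 2, where 27.1% of all transcripts rose and 27.8% fell. Mmp14 fell by 3.00 and Timp2 by 2.78, while Col4a1, a basement membrane collagen, rose by 0.97 and Col6a2 by 1.02. The preadipocyte and Wnt list had 26 peaks at 12 of 23 genes, with 6 rises, among them the receptor gene Fgfr1 (0.92), and 5 falls, among them Pdgfrb (-3.90) and Dlk1 (-2.40). Actin genes had 13 peaks at 5 of 20 genes, and RNA of all 5 fell at day 2, with Cald1 down by 2.07 and Myh9 by 1.89.

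TGF-beta and BMP genes held 50 peaks at 13 of 29 genes. Losses of KDM5A from day 0 to day 2 were called at 2 of the 50, those of Ltbp1 and Smad6 above, and at 0.180% of the 6660. RNA of 7 of the 12 tested genes fell and 2 rose at day 2, beside 27.1% of all transcripts that rose and 27.8% that fell. Tgfb2 was down by 2.57 and Tgfbr2 up by 1.34. Cell cycle genes had 20 peaks at 12 of 48, with 9 rises at day 2, E2f2 (3.89) and Rrm2 (3.64) among them, and 2 falls, of Cdkn2b (-2.86) and Rbl2 (-0.67). Interferon and inflammatory genes had 14 peaks at 7 of 30, with 1 rise and 5 falls, and H3K4 writers and erasers had 9 peaks at 4 of 25, of which 5 lay near Wdr5, a core subunit of the H3K4 methyltransferases. Kdm5a, Kdm5b and Kdm5c had none.

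Knockdown of the 3 Kdm5 genes changed fewer of the nearest genes at day 0 and 4 hours than at day 2, with or without the replicate block. At day 0, 22 of the 2961 rose and 25 fell (0.743% and 0.844%, where 0.606% and 0.901% of all transcripts did), or 160 and 157 with the replicate number as a block (background 4.38% and 5.05%). At 4 hours 26 rose and 16 fell (background 0.798% and 0.643%), or 179 and 134 with the block (background 4.58% and 5.1%). Leaving out any 1 of the 4 libraries compared left 1 to 4 rises and 1 to 8 falls at day 0, and 1 to 4 rises and 0 to 2 falls at 4 hours. At day 2, 258 rose (8.71%) and 90 fell (3.04%), where the background was 5.66% and 3.34%, or 555 and 409 with the block (18.7% and 13.8%, background 13.9% and 14.2%). Counts at day 2 depended on single libraries: the rises numbered 46 when shKdm5ABC replicate 1 was left out, 50 for shLuc replicate 2, 136 for shLuc replicate 1 and 216 for shKdm5ABC replicate 2.

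Angpt2, a ligand of the endothelial receptor TIE2, rose at all 3 times in the knockdown (2.04, 3.46 and 3.14). Its RNA was 3.82 and 2.81 log2 tags per kb in shLuc and 6.65 and 6.27 in shKdm5ABC cells at day 2, and the groups did not overlap. Its distal KDM5A peak, chr8:18775834-18776727, held 39.0 and 15.9 tags at day 0, 60.3 and 43.9 at 4 hours and 9.08 and 9.28 at day 2. Epas1 rose by 2.06 at day 0, from 4.46 and 4.91 to 6.51 and 6.97, and by 1.14 at day 2.

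At day 2 the other large rises were of Apod (2.92), a lipid-binding apolipoprotein, Dpt (2.77), a matrix protein, and Htra3 (2.73), a secreted protease. The falls were of Tgm2 (-1.67), a transglutaminase, Pbk (-1.39), a mitotic kinase, Bnip3 (-1.30), a mitochondrial receptor of autophagy, and Insig1 (-1.23), which holds back sterol synthesis. Day 0 falls were led by Ifit1 (-2.45), P2rx3 (-2.39), an ATP-gated channel, Slc7a5 (-2.12), an amino acid transporter, and Zbp1 (-2.06), a nucleic acid sensor. At 4 hours Ccn5 (1.86), Mfap2 (1.65) and Htra3 (1.59) rose and P2rx3 (-2.08), Ifit1 (-2.06) and Emp2 (-1.61) fell.

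Of the lists at day 2 in the knockdown, 8 of the 12 cell cycle genes with a distal peak fell and 2 rose, with E2f2 down by 1.23 and Rrm2 by 0.91 and the inhibitor Cdkn2b up by 1.505. Of the 21 matrix genes 4 rose and 0 fell, led by Fbn1 (1.97), or 8 and 1 with the block, and of the 7 interferon and inflammatory genes 4 rose and 0 fell, where 5.66% of all transcripts rose and 3.34% fell. In these libraries preadipocyte markers summed to 13.6 and 13.1 log2 tags per kb in the knockdown and 13.0 and 12.4 in shLuc cells, and adipocyte markers to 14.3 and 15.0 against 15.1 and 15.5. Their part in these changes was not tested.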

How the data were processed

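KDM5A tags (6 libraries, 3 times), KDM5C tags (2 libraries), 1 Input column and RNA (12 libraries) were used, as tables of the whole series, and all value columns matched a sample. Per the submitters' processing notes, reads were handled with STAR, HOMER, Bowtie2 (version given as 0.12.8), Subread and DESeq2 on mm9; which tool served which step is not given in the sources used here. The KDM5A, KDM5C and H3K4me3 values are deposited signal, tags per merged peak that the authors scaled to a common library total. Dividing by the step of 1 read gave whole reads within 0.1 for 100% of the KDM5A values. The deposited distance to the nearest start site is in bp (a signed score of position), per the file headers, and nearest genes are those the authors' table names. The RNA values are deposited log2 normalized tags per kb, per the name of the authors' table; the pseudocount is not given in the sources used here.

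KDM5A was tested on log2(tags + 1) with limma 3.58.1 (R 4.3.3, trended empirical Bayes over all 87525 peaks and 6 libraries), so fold changes of low peaks are understated. RNA was tested with limma over all 12 libraries and transcripts with a log2 value of at least 1 in at least 2 libraries. P-values were adjusted by Benjamini-Hochberg over all features, and called means an adjusted p under 0.05. Overlap needed 1 shared base (Python 3.11.15, pandas 2.3.3, NumPy 2.4.6, SciPy 1.17.1, matplotlib 3.10.9). The fits were tested on simulated data. Nearest genes were matched to RNA by RefSeq accession for 5031 peaks and by symbol for 913, and 716 were unmatched; spreadsheet dates stood in place of the gene name in 180 KDM5A peaks and were put back where they could be.

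Same-numbered RNA libraries deviated together in all 15 pairs of groups (correlations 0.381 to 0.657), so RNA numbers pair the samples. The numbers come from the labels. The main RNA fit did not use this pairing, and the counts that did are those given with the block. Named peaks were the 8 with the highest mean, the 4 highest and 4 lowest changes among called, non-overlapping peaks of each comparison, the 5 with the highest KDM5C, the 4 with the highest Input, up to 3 per gene list and the neighbours of the thresholds. Named RNA genes were their nearest genes and the 4 highest and 4 lowest called changes with a mean of at least 3 and no overlap. Other genes named were chosen after their values were seen, and the peaks and gene lists were chosen with earlier results of these data known. Alternatives were edgeR 4.0.16 and DESeq2 1.42.0 on the recovered counts of reads, other scalings, filters and thresholds, the replicate block and leaving out each library. H3K4me3 was used for position only, and peak sequences and motifs were not analysed here.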

Additional observations from a re-analysis of the deposited data

How the results depend on the processing

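Of 253 values of 22 results under other settings, 119 stayed close to the reported value, 130 moved and 4 reversed. Counts are higher, then lower.

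For KDM5A the reported counts were 25 and 0 (4 hours against day 0), 59 and 12 (day 2 against day 0) and 33 and 142 (day 2 against 4 hours). With pseudocount 5 they were 5 and 0, 105 and 3, 70 and 128. With a filter of at least 5 tags they were 44 and 1, 95 and 19, 56 and 201. Median-ratio size factors gave 106 and 8, 142 and 233, 126 and 755. On recovered reads edgeR gave 23 and 0, 146 and 168, 122 and 471, and DESeq2 gave 0 and 0, 3 and 1, 2 and 11. Of the 25, 71 and 175 reported calls, edgeR shared 18, 71 and 162. Without the trend no peak was called. A threshold of 40 tags gave 6 and 0, 26 and 0, 12 and 14, and 50 kb gave 7 and 0, 14 and 2, 8 and 50, by fewer peaks. Same-numbered KDM5A libraries correlated at 0.0470 to 0.333 over 3 pairs, so the numbers were not taken as pairs; the replicate block gave 326 and 3, 243 and 74, 109 and 626. The median change at 4 hours was 0.13 (size factors), 0.14 (edgeR) and 0.135 (DESeq2), and that of day 2 against day 0 turned to -0.27, -0.36 and -0.27. Leaving out 1 library gave 0 to 116 and 0 to 6, 0 to 113 and 0 to 22, 2 to 104 and 5 to 122, with medians of 0.19 to 0.80, -0.23 to 0.44 and -0.60 to -0.22. The cause was not tested.

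For RNA, 40 tags gave 372 and 273 (4 hours), 335 and 469 (day 2), then 6 and 11, 9 and 8, 116 and 35 in the knockdown at day 0, 4 hours and day 2, and 50 kb gave 238 and 228, 206 and 366, 6 and 6, 12 and 2, 101 and 16, by fewer genes. The replicate block gave 160 and 157, 179 and 134, 555 and 409 in the knockdown, and fits of only the 2 groups 1 and 1, 0 and 0, 5 and 0. Without the filter 14 fell at day 0 and 16 rose at 4 hours, and without the trend 15 fell at day 0. Leaving out 1 library gave 597 to 679 and 438 to 492 (4 hours), 635 to 682 and 846 to 904 (day 2), then 1 to 4 and 1 to 8, 1 to 4 and 0 to 2, 46 to 216 and 4 to 78 in the knockdown.

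The KDM5C share was 6.04% with KDM5C peaks of at least 20 tags and 15.57% at 40 KDM5A tags, and the ratio to Input was 4.31 with pseudocount 5. Depth limits 4 hours replicate 2 and day 2 replicate 1, where 1 read is over 2 tags. The motif alternatives were not run.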
